A study of Rattus norvegicus with 17 samples.

Results

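The corticosteroid signalling genes of the meibomian gland (MG) are described here in 17 female Sprague-Dawley rats. The members are 6 of the 17251 genes in the table of expression values: human NR3C2, the mineralocorticoid receptor (MR) transgene, rat Nr3c2, the animals' own MR, Nr3c1, the glucocorticoid receptor (GR), the enzyme genes Hsd11b1 and Hsd11b2, and H6pd. They were chosen by symbol, with upper and lower case kept apart so that NR3C2 and Nr3c2 stay separate, and all 6 reached 1 TPM in at least 3 rats. The rats were 10 to 12 weeks old and formed 4 groups, with 1 library per rat. Control WT (n = 4) and UVB WT (n = 3) rats were wild type, Control P1.hMR (n = 5) and UVB P1.hMR (n = 5) rats carried the human MR. In both UVB groups the eyelids were exposed to ultraviolet B light for 5 days before the MG was dissected, and the control groups were not exposed. The transgene has the human gene's own P1 promoter rather than one specific to the gland. It is therefore not confined to the MG, and other organs and immune cells of these animals can express it too. Each group enters 1 UVB comparison and 1 genotype comparison, so these comparisons share rats.

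MR and GR are ligand-activated transcription factors that sit in the cytoplasm with chaperones and move to the nucleus when a corticosteroid binds. MR binds aldosterone and also glucocorticoids with high affinity, and what reaches it depends on 2 enzymes. Hsd11b1 encodes 11βHSD1, which in cells turns the inactive cortisone (11-dehydrocorticosterone in rats) back into the active hormone, and Hsd11b2 encodes 11βHSD2, which inactivates it and in aldosterone target tissues guards MR. H6pd encodes the enzyme of the endoplasmic reticulum that supplies the NADPH used by 11βHSD1.

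Expression is given in TPM, a transcript's share of all transcripts in its library, adjusted for transcript length, so levels can be set side by side between genes. TPM keeps no read number. The authors report a range of mapped reads over their libraries, but the reads behind each value are not given. Only the variation among animals shows here how precise a value is. Between 12372 and 12737 genes per rat reached 1 TPM. Marker genes of meibocytes, the lipid-filled cells of the gland, summed to between 38480 and 53190 TPM in every rat, with none of the 10 at 0 throughout a group. Skeletal muscle, keratinocyte and hair shaft genes were also present, so the samples held eyelid tissue around the gland. The whole gland was measured, and in such samples fewer cells of a type and less RNA per cell cannot be told apart.

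The transgene checked the labels first. The WT rats, 7 in number, had NR3C2 listed at 0. In the 5 Control P1.hMR rats it stood at 6.77, 8.28, 9.25, 9.31 and 7.19 TPM for rats 1 to 5, and in the 5 UVB P1.hMR rats at 6.09, 8.93, 5.54, 6.76 and 5.31 TPM. Every rat labelled P1.hMR thus carried the human transcript and no WT rat did. Human and rat MR are closely related genes, the quantification could have split reads between them, and how the human sequence was added to the annotation is not given in the sources used here, so both values are uncertain.

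The members spanned a wide range of levels. Hsd11b1 was the most abundant in every rat, between 909.51 and 1290.83 TPM, which placed it between ranks 83 and 128 of the 17251 genes. Nr3c1 followed at 23.73 to 30.82 TPM and H6pd at 13.51 to 18.03 TPM, with Nr3c1 above H6pd in 17 of 17 rats. Nr3c2 ranged from 6.33 to 25.9 TPM and lay below H6pd in 16 of 17 rats, the exception being Control WT rat 1. Among the 10 P1.hMR rats, the rat gene exceeded the transgene in 9, so the order of this pair was not the same in every rat. Hsd11b2 was the lowest, at 0.94 to 7.09 TPM, below Nr3c2 in 17 of 17 rats and below NR3C2 in 10 of 10 P1.hMR rats. The widest spreads among the rat genes were in Hsd11b2, with a highest value 7.54 times its lowest, and in Nr3c2, at 4.09 times. Nr3c1, H6pd and Hsd11b1 varied by 1.3, 1.33 and 1.42 times.

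**Figure D1:**
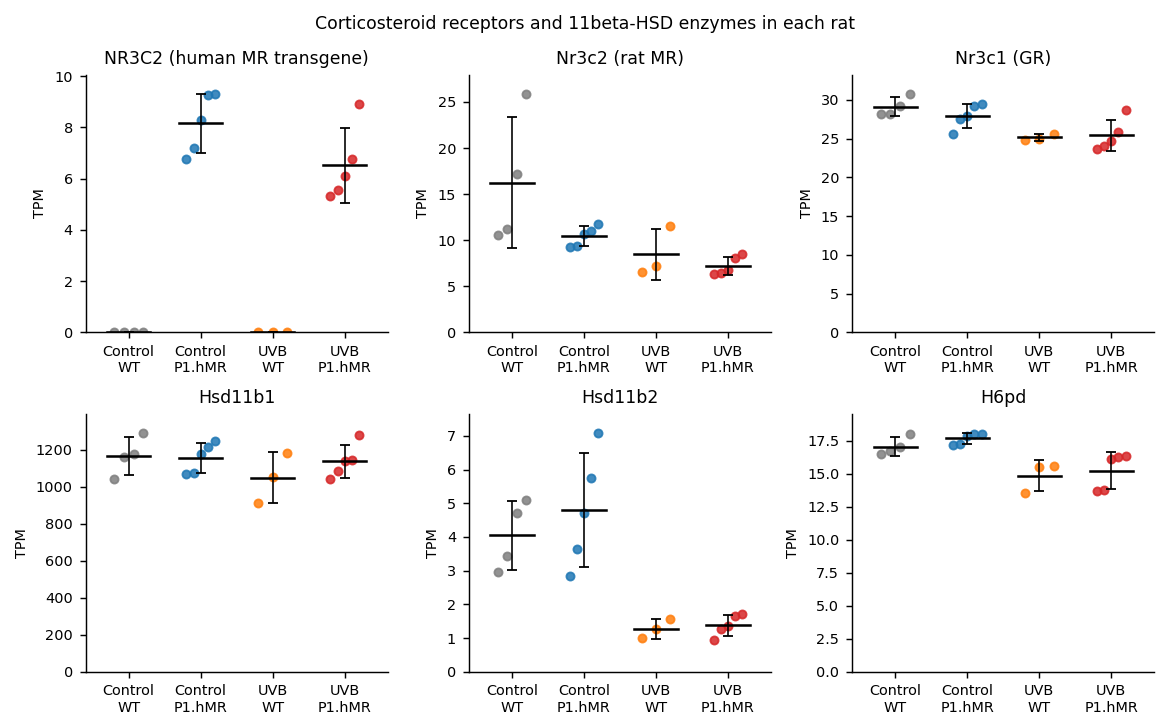
Expression in TPM (y axes, linear and starting at 0) of the 6 members in each rat (points) of the 4 groups, with the group mean (line) and SD (bar). Hsd11b2 lay lower in all 8 UVB rats than in all 9 control rats, Hsd11b1 overlapped between all groups, and 1 Control WT rat held Nr3c2 at 25.9 TPM.

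UVB exposure in WT rats was set against no exposure with limma on log2(TPM + 1), where a call needed a log2 fold change of 0.5 or more in either direction and an adjusted p (Benjamini-Hochberg) below 0.05. Of the 5 rat members, 2 were called, Hsd11b2 and Nr3c2, both lower, and the other 3 were not. Over all 13105 genes tested, 7.91% were called and 3.98% were called lower. In P1.hMR rats 1 of the 5 was called, Hsd11b2, again lower, where 10.8% of all genes were called and 5.71% were called lower. All 5 rat members had a negative log2 fold change in both comparisons. With the UVB effect averaged over both genotypes, the same 2 members, Hsd11b2 and Nr3c2, were called, against 9.48% of all genes. Every UVB rat lay below every control rat for 3 of 5 members in WT rats (Nr3c1, Hsd11b2 and H6pd), which held for 12.6% of all genes. In P1.hMR rats it held for 3 of 5 (Nr3c2, Hsd11b2 and H6pd) against 14.0% of all genes. Over both genotypes together it held for 2 of 5 (Hsd11b2 and H6pd) against 5.33% of all genes.

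**Figure D2:**
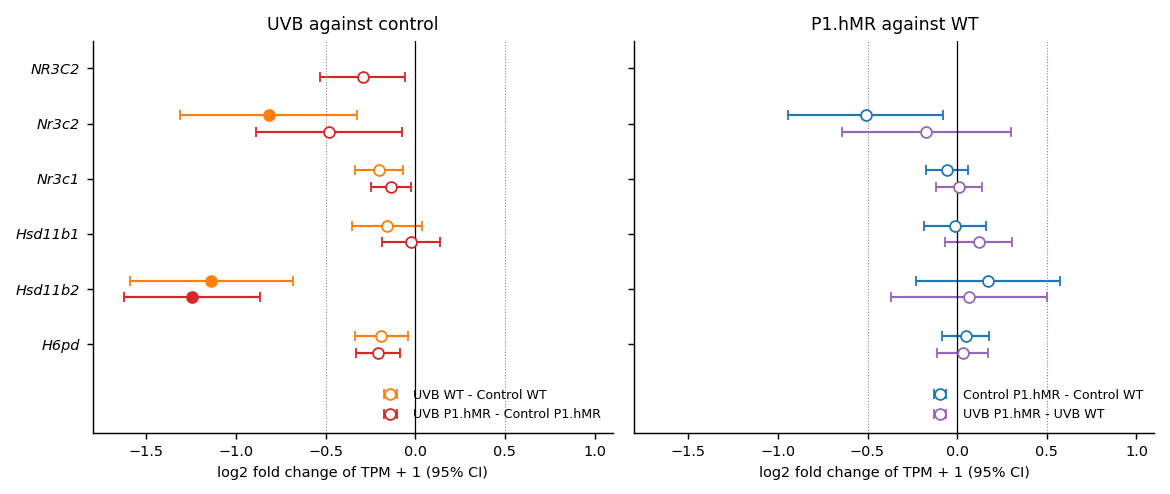
log2 fold change of TPM + 1 (x axes) with its 95% confidence interval from limma for each member (y axis), UVB against control on the left and P1.hMR against WT on the right. Filled points mark the called members, open points the others, and dotted lines stand at a log2 fold change of 0.5 in either direction. Only Hsd11b2 was called in both UVB comparisons and none of the rat members was called between genotypes. NR3C2 has no fold against WT rats, in which it is at 0.

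Hsd11b2, which encodes the inactivating enzyme, had the largest log2 fold change of the members in both genotypes. In Control WT rats 1 to 4 it stood at 2.96, 5.11, 3.43 and 4.71 TPM, and in UVB WT rats 1 to 3 at 1.57, 0.99 and 1.26 TPM. In Control P1.hMR rats 1 to 5 the values were 5.75, 7.09, 4.71, 3.63 and 2.84 TPM, and in UVB P1.hMR rats 1 to 5 they were 1.35, 1.27, 1.7, 1.66 and 0.94 TPM. The highest of the 8 UVB rats was below the lowest of the 9 control rats. In WT rats the mean was 4.05 ± 1.02 TPM without UVB (SD, n = 4) and 1.27 ± 0.290 TPM with it (SD, n = 3), and the ratio of these means was 0.314. In P1.hMR rats it fell from 4.80 ± 1.69 to 1.38 ± 0.311 TPM (SD, n = 5 each), a ratio of 0.288. On the log2(TPM + 1) scale, which understates the change of low genes, the difference was -1.14 (SE 0.22, limma adjusted p = 0.00197) in WT rats. It was -1.24 (SE 0.18, limma adjusted p = 6.7e-05) in P1.hMR rats. The two-sided exact permutation p was 0.0571 for 3 against 4 rats and 0.00794 for 5 against 5, each the smallest that its group sizes allow. The responses of the 2 genotypes differed by -0.11 (95% CI -0.70 to 0.49, limma adjusted p = 0.96), an interval that leaves room for a difference of some size in either direction. Hsd11b2 was called in both comparisons with a covariate for the hair shaft markers, at -1.05 for WT and -1.19 for P1.hMR rats, and with a covariate for the skeletal muscle markers, at -1.06 and -1.18.

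Nr3c2, the rat MR, was lower after UVB, with more spread. Control WT rats 1 to 4 held 25.9, 17.2, 10.61 and 11.19 TPM, and UVB WT rats 1 to 3 held 7.23, 11.59 and 6.53 TPM. UVB WT rat 2 thus lay above the lower 2 of the control rats, and the groups overlapped. In P1.hMR rats the groups did not overlap: the control rats 1 to 5 held 11.79, 10.66, 11.01, 9.42 and 9.27 TPM, and the UVB rats 1 to 5 held 8.54, 8.02, 6.40, 6.77 and 6.33 TPM. The WT means were 16.2 ± 7.10 (SD, n = 4) and 8.45 ± 2.74 TPM (SD, n = 3), and the P1.hMR means 10.4 ± 1.07 and 7.21 ± 1.01 TPM (SD, n = 5 each). In WT rats the log2 difference was -0.82 (SE 0.23, limma adjusted p = 0.02) and Nr3c2 was called, while the two-sided exact permutation test gave p = 0.171, with 0.0571 the smallest possible. This call was lost in a fit of the 2 WT groups alone (limma adjusted p = 0.12), and when Control WT rat 2 (0.0504), UVB WT rat 1 (0.0704) or UVB WT rat 3 (0.0868) was left out. It held without Control WT rat 1, the highest, where the difference was -0.57 (limma adjusted p = 0.039). In P1.hMR rats the difference was -0.48 (SE 0.19, limma adjusted p = 0.0585), which was not called. The exact permutation p was 0.00794, the smallest possible. Averaged over both genotypes, Nr3c2 fell by 0.65 on the log2 scale (SE 0.15, limma adjusted p = 0.00224). The interaction was 0.34 (95% CI -0.30 to 0.98, limma adjusted p = 0.867), so a different response of the 2 genotypes was not shown and an equal one was not shown either. Without Control WT rat 1 it was 0.09.

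The transgene fell short of a call after UVB. Its mean was 8.16 ± 1.16 TPM in Control P1.hMR rats and 6.53 ± 1.46 TPM in UVB P1.hMR rats (SD, n = 5 each), and the groups overlapped through UVB P1.hMR rat 2 at 8.93 TPM. The log2 difference was -0.29 (SE 0.11, limma adjusted p = 0.048), under the fold threshold, and the two-sided exact permutation p was 0.0714. The WT rats, all at 0, entered this fit with no spread of their own and lowered its error. In a fit of the 2 P1.hMR groups alone the adjusted p from limma was 0.0896.

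Nr3c1, which encodes GR, had small differences. The 4 Control WT rats held 28.21, 30.82, 29.22 and 28.25 TPM and the 3 UVB WT rats 25.65, 24.99 and 24.89 TPM, without overlap. Control P1.hMR rats 1 to 5 held 27.58, 25.61, 29.53, 27.97 and 29.20 TPM. UVB P1.hMR rats 1 to 5 held 25.85, 28.75, 23.73, 24.67 and 24.10 TPM, and rat 2 sat within the control range. The log2 differences were -0.20 (SE 0.06, limma adjusted p = 0.0327) in WT and -0.13 (SE 0.05, limma adjusted p = 0.0525) in P1.hMR rats, both under the fold threshold. The ratios of means were 0.864 and 0.909. The exact permutation p was 0.0571 in WT rats, the smallest possible, and 0.0635 in P1.hMR rats.

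Hsd11b1, which encodes the reactivating enzyme, was not called in either UVB comparison. It stood at 1290.83, 1042.95, 1159.28 and 1175.42 TPM in Control WT rats 1 to 4 and at 909.51, 1182.97 and 1053 TPM in UVB WT rats 1 to 3. In Control P1.hMR rats 1 to 5 it stood at 1247.11, 1074.52, 1175.65, 1066.32 and 1215.64 TPM, and in UVB P1.hMR rats 1 to 5 at 1144.32, 1279.33, 1136.38, 1082.39 and 1040.07 TPM. All 4 groups overlapped. The log2 difference was -0.16 in WT rats (95% CI -0.35 to 0.04, limma adjusted p = 0.237) and -0.02 in P1.hMR rats (95% CI -0.19 to 0.14, limma adjusted p = 0.821). The WT value was -0.06 without UVB WT rat 1 and -0.25 without UVB WT rat 2. Neither interval reaches the fold threshold of 0.5. The exact permutation p was 0.4 and 0.706.

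H6pd, which supplies 11βHSD1 with its cofactor, was slightly lower in all 8 UVB rats. Control WT rats 1 to 4 held 16.45, 18.03, 16.74 and 16.99 TPM and UVB WT rats 1 to 3 held 15.50, 15.56 and 13.51 TPM. Control P1.hMR rats 1 to 5 held 17.24, 17.19, 18.01, 18.02 and 17.87 TPM, and UVB P1.hMR rats 1 to 5 held 13.76, 13.66, 16.08, 16.24 and 16.36 TPM. The gap between all UVB and all control rats was small, from 16.36 to 16.45 TPM. The log2 differences of -0.19 (SE 0.07, limma adjusted p = 0.0664) in WT and -0.21 (SE 0.06, limma adjusted p = 0.0103) in P1.hMR rats were both under the fold threshold. The exact permutation p was 0.0571 and 0.00794, the smallest possible in each case.

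Between genotypes no rat member was called, with or without UVB. In unexposed rats 0.00763% of all genes were called, which is 1 gene, NR3C2 itself. In UVB rats 0.0229% were called, which is 3 genes, NR3C2, Cd8a and AABR07060145.1, the last 2 named here after their values were seen. Averaged over treatments 0.00763% were called, again NR3C2 alone. Nr3c2 had the most negative difference from WT: the log2 difference was -0.51 (95% CI -0.94 to -0.08, limma adjusted p = 0.998) without UVB and -0.17 (95% CI -0.64 to 0.30, limma adjusted p = 0.829) with UVB. The exact permutation p was 0.111 and 0.464. Both values depended on single rats: the first was -0.27 without Control WT rat 1, and the second 0.05 without UVB WT rat 2. The other 4 rat members differed between genotypes by -0.06 to 0.17 on the log2 scale, with limma adjusted p of at least 0.681. The interval of Hsd11b2 was the widest of these 4, from -0.23 to 0.57 without UVB. The interaction of genotype and UVB gave 0 calls with limma among the members and among all genes (0%), while 907 of 13105 genes, or 6.92%, had an unadjusted p under 0.05 and none of the 5 members did.

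Adding the transgene to the rat gene gives the MR transcripts of each animal. These sums and ratios were built from the members and carry no test. Total MR was 16.2 ± 7.10 TPM in Control WT (SD, n = 4), 18.6 ± 1.37 TPM in Control P1.hMR (SD, n = 5), 8.45 ± 2.74 TPM in UVB WT (SD, n = 3) and 13.7 ± 2.17 TPM in UVB P1.hMR rats (SD, n = 5). Without UVB the 5 P1.hMR rats, at 16.46 to 20.26 TPM, lay within the WT range of 10.61 to 25.9 TPM. With UVB they lay at 11.64 to 16.95 TPM, all above the 3 WT rats at 6.53 to 11.59 TPM. The transgene made up 36.5% to 49.7% of MR transcripts in Control P1.hMR and 41.6% to 52.7% in UVB P1.hMR rats, ranges that overlap.

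Set against GR, total MR amounted to 0.559 ± 0.254 of Nr3c1 in Control WT (SD, n = 4) and 0.666 ± 0.0639 in Control P1.hMR rats (SD, n = 5). After UVB it amounted to 0.336 ± 0.111 in WT (SD, n = 3) and 0.538 ± 0.0441 in P1.hMR rats (SD, n = 5). GR transcripts thus outnumbered MR transcripts in all 17 rats, with the highest ratio, 0.918, in Control WT rat 1 and the lowest, 0.262, in UVB WT rat 3. The 5 UVB P1.hMR rats, at 0.483 to 0.590, were all above the 3 UVB WT rats, at 0.262 to 0.464, while the unexposed groups overlapped.

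**Figure D3:**
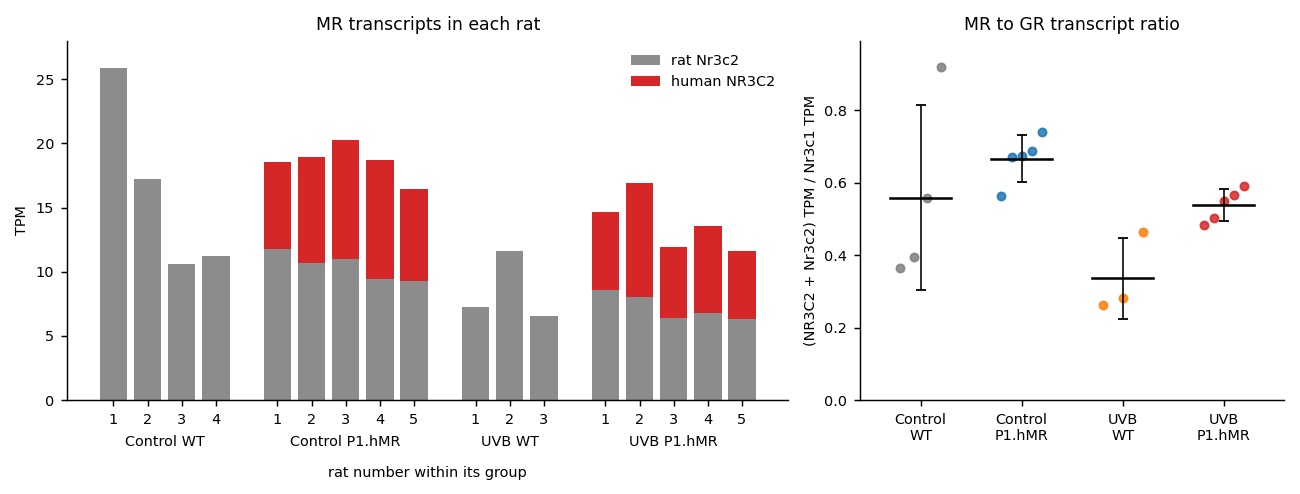
Left, TPM of rat Nr3c2 (grey) and human NR3C2 (red) stacked for each rat, numbered within its group on the x axis. Right, the ratio of their sum to Nr3c1 in each rat (points), with the group mean (line) and SD (bar). With UVB every P1.hMR rat had a higher ratio than every WT rat, and without UVB Control WT rat 1, at 0.918, was above all P1.hMR rats.

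The ratio of Hsd11b1 to Hsd11b2 was higher with UVB in both genotypes. It was 307 ± 102 in Control WT (SD, n = 4) and 870 ± 309 in UVB WT rats (SD, n = 3), and 268 ± 103 in Control P1.hMR and 856 ± 202 in UVB P1.hMR rats (SD, n = 5 each). The control rats lay between 152 and 436 and the UVB rats between 579 and 1195, with no overlap. Hsd11b1 per H6pd was 68.7 ± 8.44 in Control WT (SD, n = 4), 65.5 ± 5.05 in Control P1.hMR (SD, n = 5), 70.9 ± 10.6 in UVB WT (SD, n = 3) and 75.5 ± 12.6 in UVB P1.hMR rats (SD, n = 5), and all groups overlapped. Enzyme activity and protein were not measured in these files.

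**Figure D4:**
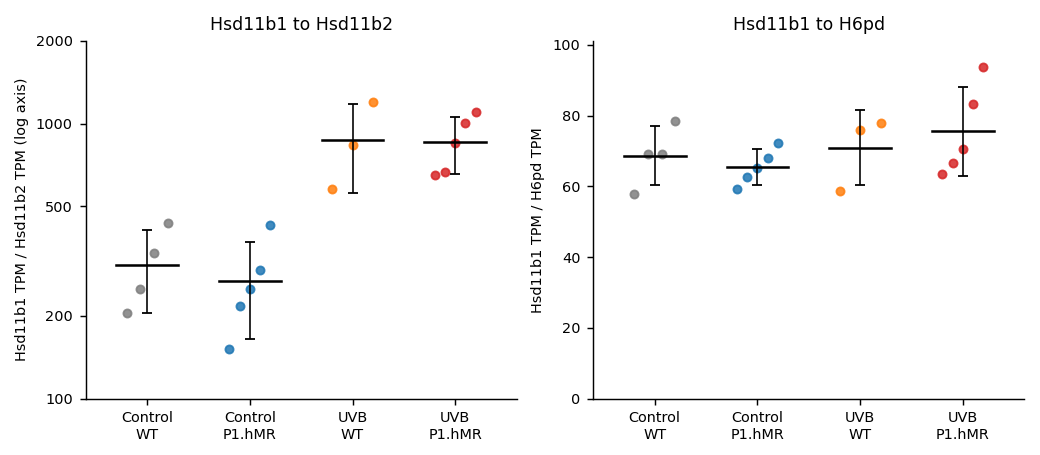
Left, Hsd11b1 TPM divided by Hsd11b2 TPM (log axis), and right, Hsd11b1 TPM divided by H6pd TPM (linear axis from 0), in each rat (points) with the group mean (line) and SD (bar). The left ratio was above 579 in all UVB rats and at most 436 in all control rats, while the right ratio overlapped between all groups.

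Marker genes of other cell types moved with UVB alongside these changes. Of 7 macrophage markers, 4 rose in each genotype (C1qa, C1qb, Cd163 and Mrc1), and their summed level went from 73.0 to 134.1 TPM in the 4 Control WT rats to 106.1 to 185 TPM in the 3 UVB WT rats. In the P1.hMR groups it went from 74.8 to 131.7 TPM to 134.1 to 209 TPM. Of 6 fibroblast markers tested, 3 rose in each genotype (Lum, Dcn and Pdgfra) and Col1a1 fell in P1.hMR rats, and the summed level overlapped between all groups, at 913.5 to 1547 TPM in control and 1200 to 1939 TPM in UVB rats. Hair shaft keratins summed to 276.4 to 574 TPM in Control WT and 135.9 to 328.3 TPM in UVB WT rats, with 3 of 6 called lower. They summed to 223.2 to 593.7 TPM in Control P1.hMR and 194.4 to 298.8 TPM in UVB P1.hMR rats, with 1 of 6 called lower. Of 4 melanocyte markers, 3 fell in WT rats, where their sum was 67.46 to 127.5 TPM without and 50.47 to 59.43 TPM with UVB, and none was called in P1.hMR rats, where the median log2 difference was -0.35. Of 10 meibocyte markers, Awat2 fell and Elovl3 rose in both genotypes, Dgat2 fell in P1.hMR rats, and the summed level overlapped between the groups. Of 3 endothelial markers Vwf rose in both genotypes, of 4 adipocyte markers Cidec fell in WT and Retn rose in P1.hMR rats, of 7 skeletal muscle markers Mb fell in P1.hMR rats, and of 4 markers of differentiated keratinocytes Ivl fell in both. None of 5 basal keratinocyte and 2 conjunctival surface markers was called. None of the markers in the table was at 0 throughout a group. What part these cell types had in the fall of Hsd11b2 and Nr3c2 was not tested. No fit held a covariate for macrophage or fibroblast markers, and some hair shaft markers themselves fell with UVB. Covariates were fitted for hair shaft and for skeletal muscle markers. Under the first Nr3c2 came to -1.09 among WT rats and to -0.64 among P1.hMR rats, then called (limma adjusted p = 0.0314), and under the second to -0.80 and -0.47.

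Genes around the receptors were taken from lists that name their partners. Of 17 chaperones and co-chaperones, 16 were in the table, all were tested, and none was called in any comparison. Their median log2 difference with UVB came to 0.13 for WT and 0.18 for P1.hMR rats, against 0.01 and -0.02 over all genes. Dnaja1 was higher by 0.37 (limma adjusted p = 0.000634) in WT and 0.47 (limma adjusted p = 4.69e-06) in P1.hMR rats. Hsph1 was higher by 0.43 (limma adjusted p = 0.0067) and 0.47 (limma adjusted p = 0.000344). All of these lay under the fold threshold. Bag1 had a negative log2 difference of -0.03 (limma adjusted p = 0.803) in WT and -0.16 (limma adjusted p = 0.0501) in P1.hMR rats. In WT rats Fkbp5 (-0.34, limma adjusted p = 0.68) and Hspa4 (-0.03, limma adjusted p = 0.749) were also negative. In P1.hMR rats they came to 0.34 and 0.05 (limma adjusted p = 0.558 and 0.37). None of these differences had a limma adjusted p below 0.05. Hsp90aa1, the inducible HSP90 that holds unbound receptors, averaged 143.9 and 142.8 TPM in the Control WT and P1.hMR groups and 157.8 and 166.6 TPM in the UVB groups. Its log2 difference was 0.13 (limma adjusted p = 0.208) in WT and 0.22 (limma adjusted p = 0.00861) in P1.hMR rats, under the fold threshold. Hsp90ab1, the more abundant HSP90 gene of this list, had group means of 1139 to 1273 TPM. It was higher by 0.15 in WT (limma adjusted p = 0.014) and 0.15 in P1.hMR rats (limma adjusted p = 0.00225), also under the threshold. Of 20 coregulators, 19 were tested and Ppargc1a, a coactivator that drives mitochondrial genes, was called lower in both genotypes, at -0.74 (limma adjusted p = 0.0235) and -0.93 (limma adjusted p = 0.000769). Its mean was 3.30 and 3.02 TPM in the Control WT and P1.hMR groups and 1.69 and 1.1 TPM in the UVB groups. Under the fold threshold, Ncoa1 (-0.28 and -0.23), Ncoa2 (-0.30 and -0.31) and Ell (-0.31 and -0.33) were lower in WT and P1.hMR rats. Each had a limma adjusted p below 0.05 in both. Hdac3 in WT rats and Casp8ap2 and Med14 in P1.hMR rats were higher at that level. Smarca4 was lower at that level in P1.hMR rats (-0.14, limma adjusted p = 0.0262).

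Of 10 genes that supply or move the substrates of NADPH production, 8 were in the table and none was called. Slc37a4, the transporter that feeds glucose 6-phosphate to H6PD, averaged between 13.2 and 13.8 TPM in all 4 groups, with log2 differences of -0.02 and 0.04 with UVB. Of 23 genes of steroid synthesis, inactivation and transport, 17 were in the table and 11 were tested. None was called in WT rats, and Srd5a1 and Akr1c14, which reduce steroid hormones in succession, rose in P1.hMR rats. Srd5a1 went from 127.5 to 197.2 TPM (log2 difference 0.68, limma adjusted p = 0.00156) and Akr1c14 from 2.61 to 5.20 TPM (0.78, limma adjusted p = 7.27e-05). In WT rats the log2 differences were 0.41 (limma adjusted p = 0.103) and 0.32 (limma adjusted p = 0.107), and neither gene had a called interaction. There Srd5a1 went from 156.3 to 208.8 TPM and Akr1c14 from 2.68 to 3.56 TPM. With the UVB effect averaged over genotypes both were called, at 0.54 (limma adjusted p = 0.000955) and 0.55 (limma adjusted p = 0.000115). A rise particular to P1.hMR rats was thus not shown. Cyp21a1 and Cyp11b3, which carry out late steps of corticosteroid synthesis, stayed under 1 TPM in every rat, and Serpina6, the corticosteroid carrier of blood, was at most 0.04 TPM. Cyp11b1 and Cyp11b2 were not in the table, so the late steps were not fully covered. Other synthesis genes were present: group means were 3.57 to 5.22 TPM for Cyp11a1, 19.2 to 26.2 for Hsd3b2 and 194.6 to 277.1 for Cyp17a1. Of 13 genes of the local stress axis, 11 were in the table, 4 were tested and none was called.

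Of 8 factors known to act on Hsd11b1, 7 were in the table and tested, and 2 were called. Cebpd, a transcription factor induced in inflammation, rose in both genotypes, at 0.86 (limma adjusted p = 0.0439) in WT and 0.82 (limma adjusted p = 0.0123) in P1.hMR rats. Il1b, an inflammatory cytokine, was called in P1.hMR rats, where it went from 1.96 to 6.79 TPM (log2 difference 1.35, limma adjusted p = 0.000479). In WT rats Il1b averaged 1.78 TPM without and 3.10 TPM with UVB and was not called. The UVB WT rats 1 to 3 held 4.73, 2.29 and 2.29 TPM. The interaction for Il1b was 0.83 (SE 0.39, limma adjusted p = 0.711) and not called, so a different response of the 2 genotypes was not shown. Averaged over genotypes Il1b was called, at 0.94 (limma adjusted p = 0.000899).

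Of 8 genes that both receptors are known to control, 7 were in the table and tested. Sgk1, a kinase that MR and GR induce, was the only one called, and it fell in both genotypes. It stood at 74.54, 74.45, 66.30 and 59.16 TPM in Control WT rats 1 to 4 and at 49.81, 41.21 and 47.99 TPM in UVB WT rats 1 to 3. In Control P1.hMR rats it lay between 52.14 and 77.05 TPM, with a median of 63.88, and in UVB P1.hMR rats between 38.97 and 44.62 TPM, with a median of 40.35. The highest UVB rat was thus below the lowest control rat. The log2 difference was -0.55 (SE 0.11, limma adjusted p = 0.00251) in WT and -0.59 (SE 0.09, limma adjusted p = 0.000116) in P1.hMR rats. The median log2 difference of the 7 tested was -0.21 for WT and 0.17 for P1.hMR rats, against 0.01 and -0.02 over all genes, and none of the 7 had a called interaction (limma adjusted p of at least 0.711).

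None of the other 6 targets tested was called. Scnn1a, which encodes a subunit of the epithelial sodium channel, lay at 11.7 to 14.8 TPM in Control WT, 11.92 to 13.71 in Control P1.hMR, 7.15 to 14.96 in UVB WT and 13.45 to 18.74 in UVB P1.hMR rats. Its log2 difference with UVB was -0.21 (limma adjusted p = 0.401) for WT and 0.29 (limma adjusted p = 0.109) for P1.hMR rats, and the interaction was 0.495 (SE 0.22, limma adjusted p = 0.711). The remaining 5 are given by their range over all 17 rats. Fkbp5, a co-chaperone induced by glucocorticoids, ranged from 12.15 to 62.77 TPM, a spread of 5.17 times. Its highest value was in Control P1.hMR rat 2 and its next highest in Control WT rat 2. Zbtb16, a transcription factor, ranged from 1.48 to 13.54 TPM, a spread of 9.15 times, with the same pair of rats on top. Tsc22d3, which encodes GILZ, ranged from 28.78 to 94.46 TPM, with the same pair on top in the other order. Per1 ranged from 13.17 to 41.68 TPM and Klf9 from 12.71 to 23.42 TPM, both highest in Control WT rat 2. These rats did not stand apart in the receptors in the same way: Nr3c1 was 30.82 TPM, the highest of all, in Control WT rat 2 and 25.61 TPM, the lowest of its group, in Control P1.hMR rat 2. Hsd11b2 was the highest of its group in both, at 5.11 and 7.09 TPM, but the UVB groups did not repeat this. There Fkbp5 was highest in UVB WT rat 3 (42.24 TPM) and UVB P1.hMR rat 2 (42.05 TPM). These held Hsd11b2 at 1.26 and 1.27 TPM, below the highest of their groups, 1.57 and 1.7 TPM. Any link of the members with these targets was not tested.

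**Figure D5:**
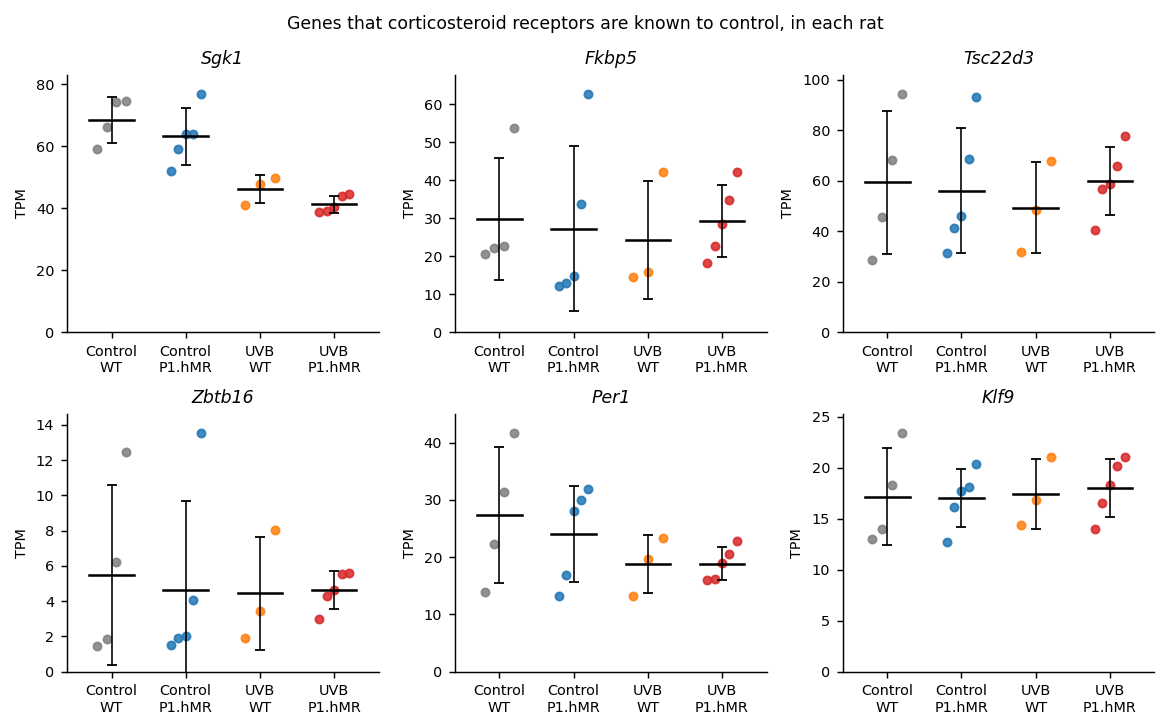
Expression in TPM (y axes, linear and starting at 0) of 6 genes that corticosteroid receptors are known to control, in each rat (points) of the 4 groups, with the group mean (line) and SD (bar). Sgk1 was at most 49.81 TPM in all UVB rats and at least 52.14 TPM in all control rats, while Fkbp5, Tsc22d3, Zbtb16, Per1 and Klf9 overlapped between all groups.

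Among the members, no pair was shown to vary together within groups. After each group's mean was subtracted, 15 pairs were examined, 10 over 17 rats and 5, those with NR3C2, over the 10 P1.hMR rats, with permutation p-values from 100000 draws within groups. The pair with the highest Pearson r was NR3C2 with Nr3c1, at 0.629 (Spearman rho 0.527, permutation p = 0.0862 and 0.148, adjusted 0.613 and 0.751). Without the 2 rats farthest from the median of NR3C2, UVB P1.hMR rats 2 and 5, r was 0.195, so the relation rested on them. Nr3c2 with Hsd11b1 came to 0.468 (rho 0.441, permutation p = 0.135 and 0.15, adjusted 0.613 and 0.751), and to 0.144 without Control WT rat 1 and UVB WT rat 2. Hsd11b1 with H6pd, the enzyme and the source of its cofactor, had r = -0.462 (rho -0.498, permutation p = 0.128 and 0.0636, adjusted 0.613 and 0.751), and -0.358 without UVB WT rat 1 and Control WT rat 2. Its Spearman p was the smallest of the 15 pairs. The enzyme pair Hsd11b1 and Hsd11b2 had r = -0.357 (rho -0.319, permutation p = 0.163 and 0.23, adjusted 0.613 and 0.845), and -0.223 without UVB WT rat 1 and Control WT rat 2. NR3C2 with Nr3c2 gave 0.279 (rho 0.321, permutation p = 0.506 and 0.419, adjusted 0.783 and 0.845), and -0.11 without the farthest rats.

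The genes whose pattern was most like each member are given by Pearson r of log2(TPM + 1) after group means were subtracted, as a description with no test. All come from the same libraries and are the extremes among 13105 genes. For Nr3c2, over 17 rats, they were Tmem79 (0.949), Slc20a1 (0.927), Vps39 (0.924), Msmo1 (0.917) and Nudcd3 (0.917), and the least like were Cacna1d (-0.912) and Runx3 (-0.905). In all, 121 genes reached 0.8 with Nr3c2, and 17 did without Control WT rat 1 and UVB WT rat 2, where Tmem79 came to 0.927. Vps39 was also the most like Nr3c2 without subtraction of group means, at 0.946. For Hsd11b1 they were Pcyt1a (0.871), which makes a precursor of phosphatidylcholine, Auh (0.852), LOC102548286 (0.851), LOC686087 (0.844) and Cisd1 (0.843), against Map4 (-0.922) and Ptpn18 (-0.917).

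For Hsd11b2 they were Dapk2 (0.861), LOC690507 (0.811), Erlin2 (0.804), LOC108348047 (0.802) and Ablim3 (0.78), against Rtn4rl1 (-0.859) and Plekha8 (-0.857). Without subtraction, where the UVB effect enters, Slc38a4 (0.953), Gsn (0.952) and Col22a1 (0.951) came first. For Nr3c1 they were LOC108348118 (0.892), Pcmtd2 (0.872), Ppp4r3a (0.868), Rnf214 (0.851) and Nipbl (0.832), against Nptx1 (-0.869) and Card10 (-0.818). For H6pd they were Rpap1 (0.904), Ercc2 (0.865), LOC100909750 (0.861), Exosc10 (0.848) and Snrnp200 (0.843), against Armc10 (-0.863) and Aldh1a7 (-0.817). For NR3C2, over 10 rats, they were Il36rn (0.954), Hnrnpa2b1 (0.943), Eif1a (0.936), Zfr (0.93) and Mtrr (0.925), against Kng1 (-0.948) and Epn1 (-0.928). Without the 2 rats farthest from each member's median, the genes reaching 0.8 went from 4 to 3 for Hsd11b2, 9 to 2 for Nr3c1 and 16 to 8 for H6pd. They went from 14 to 24 for Hsd11b1 and from 76 to 151 for NR3C2. Dapk2 then came to 0.723 with Hsd11b2. No gene was named in the lists of more than 1 member.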

How the data were processed

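RNA from the MG of 17 rats was sequenced, 1 library per rat. Read quality was assessed with FastQC, STAR served for alignment (rn7) and RSEM for quantification. The authors deposited TPM for 17251 genes, with 2 decimals and decimal commas. The submitters' processing notes also name Trimmomatic, DRAGEN and Picard. TPM keeps no counts, so the authors' count test was not repeated. The authors report a range of mapped reads, without a depth for each rat. Groups came from the deposited labels.

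Values were analysed as log2(TPM + 1). Genes had to reach 1 TPM in 3 or more rats, and the 13105 that did entered 1 limma model (limma 3.58.1, R 4.3.3) with a mean per group and a variance trend, tested two-sided in 7 comparisons, after a check on simulated data. Python 3.11.15 with scipy 1.17.1 gave two-sided exact permutation tests of single members. The members and lists were chosen with earlier results of these data known. Named genes are the members, the 5 most and 2 least like genes per member and up to 4 called genes per list. Uncalled genes of the lists, such as Hsp90aa1, Slc37a4, Cyp21a1, Cyp11b3, Serpina6 and the uncalled receptor targets, were named after being seen. So were the values of rats that stood out. Alternatives were another pseudocount, filters, scalings, fits, weights, thresholds, a replicate block, covariates and each rat left out. Columns summed to 804378 to 840817 TPM per rat, and the rest of the scale was not analysed here.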

Additional observations from a re-analysis of the deposited data

Results flagged for a closer look

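The ratio of Nr3c2 to Nr3c1, rat MR to GR, was 0.330 in UVB P1.hMR rat 1, while the other 4 rats of that group lay between 0.263 and 0.279. The gap to the nearest rat was 0.759 of the group's range, above Dixon's 95% critical value. In this rat Nr3c2 was 8.54 TPM, the highest of its group, and Nr3c1 was 25.85 TPM. This was 1 flag among 37 groups of values tested, and chance flags about 1 in 20 such groups. The interaction test called no member, which does not show an equal response to UVB in both genotypes.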

How the results depend on the processing

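Of 445 combinations of a member's comparison and an alternative setting, 435 kept the side of the threshold, 3 fell below it, 7 passed it and 0 called values reversed, while uncalled differences near 0 changed sign under some settings. With a rat left out, 609 of 612 did. For UVB against control in WT rats, Nr3c2 lost its call in a fit of the 2 groups alone and with a log2 fold change threshold of 1 (both -0.82). It ranged from -1.04 to -0.57 with a rat left out and lost its call without Control WT rat 2, UVB WT rat 1 or UVB WT rat 3. Averaged over genotypes it lost its call at that higher threshold (-0.65). With no fold change threshold, Nr3c1 in WT rats (-0.20) and averaged (-0.17), H6pd in P1.hMR rats (-0.21) and averaged (-0.20), and NR3C2 (-0.29) were called. In P1.hMR rats Nr3c2 was called with sample weights (-0.50) and with the hair shaft covariate (-0.64). The number of genes called was 1036 for UVB in WT, 1410 in P1.hMR and 1243 averaged. It was 2820, 5123 and 6192 with no fold change threshold, 219, 300 and 240 with a log2 fold change threshold of 1, and 690, 882 and 790 at a mean of at least 5 TPM. Between genotypes a mean of at least 5 TPM gave 0 calls in each case, which removes NR3C2 from the test, and the averaged effect had 2 with no fold change threshold. In UVB rats 3 genes became 1 with a pseudocount of 0.1, in a fit of the 2 groups and with the replicate block. With a rat left out the calls between genotypes ran from 1 to 6 without UVB, 1 to 52 with UVB and 1 to 12 averaged, and the interaction from 0 to 8. The upper ends of the last 3 came without UVB WT rat 3 and the first without Control WT rat 4. With UVB the count was 5 without Control WT rat 4 or UVB P1.hMR rat 2 and 1 without UVB P1.hMR rat 1, 3 or 4; averaged it was 4 without Control WT rat 4 and 2 without UVB P1.hMR rat 5, and the interaction had 1 without Control WT rat 4. No pairing of rats by replicate number was seen, though these values cannot exclude one. Same-numbered rats of different groups correlated by -0.187 to 0.235 (median -0.0051). Other-numbered rats of different groups correlated by -0.264 to 0.181 (median 0.00802). Of the rats, 6 were most like a rat of their own number. The block changed no call of a member, with Hsd11b2 at -1.15 among WT and -1.24 among P1.hMR rats. The reads behind each value are not given, and counting error was not set beside low values such as those of Hsd11b2.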
